A study of Homo sapiens with 6 samples.

Results

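The 10 genes described here encode actins and the proteins that bind actin filaments, cap or store actin monomers, or power contraction. They are ACTB, ACTG1, ACTA2, TAGLN, TAGLN2, TPM1, TPM2, MYL9, TMSB10 and PFN1, chosen by their symbols among the 16279 genes of the deposited tables, and all 10 were among the 13311 genes tested. They were followed in 12Z cells, an established human endometriotic epithelial line, so that every library came from 1 line. In the Control group (n = 3) the cells were left untreated. In the rhChem157S group (n = 3) they received 10 ng/mL of recombinant human chemerin, an adipokine, in a processed form for 48 h. The 6 libraries are labelled as biological replicates. Nothing further says how separate the cultures were, so the p-values measure the spread between these libraries.

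Actin monomers assemble into filaments that give a cell its shape, carry its movements and, with myosin II, pull. Non-muscle cells build their filaments mainly from the cytoplasmic beta and gamma actins, while smooth muscle alpha actin and its partners mark contractile smooth muscle cells and myofibroblasts. In the uterus, contractile filaments of this kind fill the myometrium, and epithelial cells use the cytoplasmic forms at their junctions and apical surface.

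In rhChem157S-treated 12Z cells, ACTA2, the smooth muscle alpha actin, had a mean of 17.2 FPKM against 37.2 in Control, and was lower in every treated library. The monomer-binding proteins TMSB10 and PFN1 and the tropomyosin TPM2 had higher means, with no overlap between the groups. The cytoplasmic actins ACTB and ACTG1 differed from Control by a wide margin only in rhChem157S replicate 3. edgeR's quasi-likelihood test, adjusted by Benjamini-Hochberg over every gene tested, called 0 of the 10 at an adjusted p under 0.05, where 4 of 13311 genes (0.0301%) did. At an unadjusted p under 0.05 the count was 5 of 10, beside 22.8% of all genes tested. DESeq2, the tool the authors used, called 3 members higher (TPM2, TMSB10 and PFN1) and 1 lower (ACTA2), beside 4.58% of all genes called higher and 6% called lower. These calls rest on the adjusted p alone, whereas the authors also required an absolute log2 fold change above 1. TPM2, TMSB10 and PFN1 did not reach that cut in DESeq2, at 0.40, 0.49 and 0.56.

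Each library held between 35430881 and 38341643 counts, and the member with the fewest, ACTA2, had at least 774 in each. rhChem157S replicate 3 stood apart from the other libraries, with the lowest TMM factor, 0.898, against 0.9725 to 1.054 elsewhere. The labelled cell type was compared with its defining markers. Of these, the simple epithelial keratins KRT8 and KRT18 were abundant, at 820 ± 82.7 and 608 ± 46.0 FPKM in Control (SD, n = 3). KRT19 was at 277.1 to 307.2 FPKM and MUC1 at 10.22 to 14.35 FPKM in the Control libraries. The epithelial adhesion genes EPCAM and CDH1 were at 0.599 ± 0.210 and 0.310 ± 0.0719 FPKM. The other listed epithelial markers were also low in the Control libraries. KRT7 was at 1.25 to 1.927 FPKM, CLDN4 at 0.6161 to 1.31 and CLDN7 at 0.3127 to 0.7326. ESRP2 was at 0.1047 to 0.1587 FPKM, ESRP1 at 0.02823 to 0.05537 and GRHL2 at 0 to 0.01868. The paper detected E-cadherin, which CDH1 encodes, and MUC1 as proteins by immunoblot. Fibroblast markers ranged in Control from PDGFRA at 1.369 to 1.742 FPKM to the collagen gene COL1A1 at 1042 ± 84.9 FPKM. FPKM, the unit of all levels given here unless another is named, is the count scaled by the library's total and by the authors' length of the gene, and can be set side by side between genes. A log2 fold change is rhChem157S over Control, from the counts after TMM scaling, with its standard error (SE).

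ACTB was the most abundant member, and TMSB10 and ACTG1 came next, close to each other. ACTB (chr7:5527147-5563784, minus strand, positions here from GENCODE release 29 on GRCh38), which encodes beta actin, ranked 2 of all genes by mean FPKM in both groups. Its FPKM were 3690, 3404 and 3663 in Control libraries 1 to 3 and 3874, 3674 and 5512 in rhChem157S libraries 1 to 3. The treated libraries 1 and 2 lay close to the Control range, library 3 lay far above it, and on this scale the groups overlapped. After TMM scaling they did not overlap, and the log2 fold change was 0.42 (SE 0.21, edgeR adjusted p = 0.273, DESeq2 adjusted p = 0.166). Without rhChem157S replicate 3 it was 0.16.

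ACTG1 (chr17:81509971-81523847, minus strand) encodes gamma actin, the other cytoplasmic form. Its FPKM were 1609, 1522 and 1692 in Control and 1575, 1553 and 2655 in rhChem157S. Of the treated libraries, only library 3 lay outside the Control range. Its log2 fold change was 0.41 (SE 0.25, edgeR adjusted p = 0.358) over all libraries and 0.043 without rhChem157S replicate 3.

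Reads of such similar actins can be shared by a counter, so their coding sequences were compared. ACTB and ACTG1 each have 1128 coding bases in GENCODE release 29, of which 1029 (91.2%) are identical at the same position, with a longest identical run of 59 bases. No stretch of 150 bases, the read length, of the ACTB coding sequence was found whole in ACTG1. The first 48 coding bases are shown because the amino-terminal end is where the proteins differ most, with the 7 bases that differ in capitals.
ACTB: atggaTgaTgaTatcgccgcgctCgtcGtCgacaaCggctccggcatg
ACTG1: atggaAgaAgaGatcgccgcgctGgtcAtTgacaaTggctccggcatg
ACTA2 shares 82.2% of aligned coding bases with ACTB and 82.4% with ACTG1. How the authors treated reads that match several places is not given in the sources used here. GENCODE lists 10 pseudogenes named after ACTB, 20 after ACTG1, 10 after PFN1, 2 after TMSB10 and 1 after TAGLN2, and 0 of these are in the count table, so counts of these genes are uncertain to the extent that reads were shared with such copies.

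**Figure D1:**
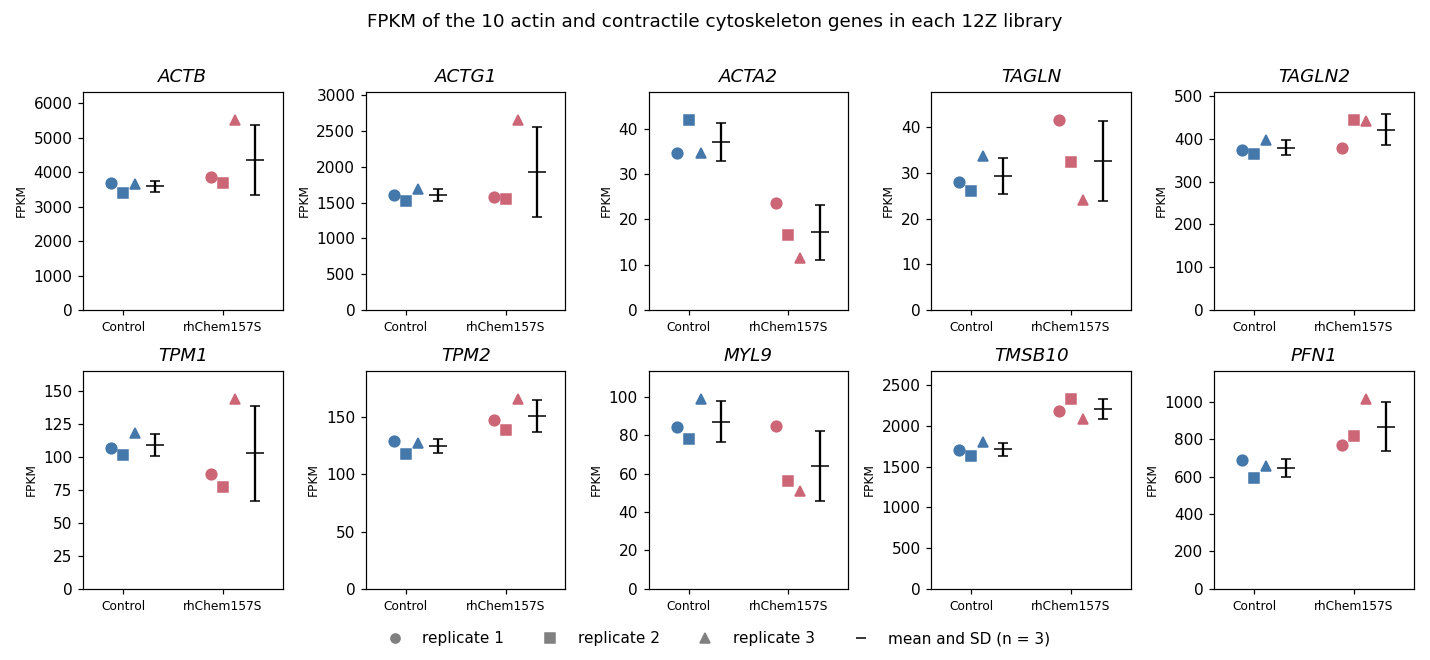
FPKM (vertical axes, from 0) of the 10 genes in the 3 Control (blue) and 3 rhChem157S (red) libraries of 12Z cells, where symbols mark the replicate number and the bars the mean and SD. ACTA2 lies lower in all 3 treated libraries, between 11.45 and 23.54 against 34.75 to 41.96 in Control, TPM2, TMSB10 and PFN1 lie higher in all 3, ACTB and ACTG1 are far above Control only in rhChem157S replicate 3, and TPM1 lies below Control in treated libraries 1 and 2 and above it in 3.

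ACTA2 (chr10:88935074-88991339, minus strand) encodes the alpha actin of smooth muscle. Its FPKM were 34.75, 41.96 and 34.76 in Control and 23.54, 16.49 and 11.45 in rhChem157S, from 774 to 2788 counts a library. All 3 treated libraries lay below all 3 Control libraries, and the mean passed from 37.2 ± 4.16 to 17.2 ± 6.08 (SD, n = 3). This gave a log2 fold change of -1.0 (SE 0.21, 95% interval -1.5 to -0.50), with an unadjusted p of 0.00202 and an adjusted p of 0.0880 in edgeR's test. DESeq2 gave an adjusted p of 0.00063. Its rank by mean FPKM among all genes went from 1811 to 3751. The share of all counts taken by ACTA2 gave p = 0.1 in an exact two-sided permutation test, the smallest p that the design allows. Without rhChem157S replicate 3, the library with the lowest level, the log2 fold change was -0.81 and edgeR's adjusted p was 0.0436. Without rhChem157S replicate 1 these were -1.26 and 0.0266.

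Exons of ACTA2 share 380 of 2976 bases with FAS on the opposite strand, and the strand setting of the counter is not given in the sources used here. FAS, a death receptor gene, had a log2 fold change of -0.014 (SE 0.18) with 404 to 593 counts. The antisense gene ACTA2-AS1, which shares 516 bases, is not in the count table.

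The promoters of smooth muscle and cytoskeletal genes often hold a CArG box, the site of 10 bases bound by serum response factor (SRF). Windows of 300 bases around RefSeq start sites on GRCh38.p14 (250 bases before the start and 50 after it) were searched on both strands for the box and for a near-CArG form, which has 1 G or C among the 6 central bases. RefSeq windows were matched for 7 of the 10 members, 11 windows in all. ACTB, TAGLN and MYL9 were not among them. A CArG box was in the ACTG1 window and 2 near-CArG boxes were in 1 of 2 ACTA2 windows, and none was in the windows of the other 5 members. Both windows are shown 5′ to 3′ along the gene's strand because they are the ones with a match, which is in capitals.
ACTG1, chr17:81512750-81513049, minus strand: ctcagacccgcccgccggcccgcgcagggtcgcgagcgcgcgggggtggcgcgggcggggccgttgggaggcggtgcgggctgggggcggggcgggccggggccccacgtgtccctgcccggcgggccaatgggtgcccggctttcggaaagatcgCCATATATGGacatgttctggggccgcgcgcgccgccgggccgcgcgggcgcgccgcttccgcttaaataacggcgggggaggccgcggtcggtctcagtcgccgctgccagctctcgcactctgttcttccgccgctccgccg
ACTA2, chr10:88952724-88953023, minus strand: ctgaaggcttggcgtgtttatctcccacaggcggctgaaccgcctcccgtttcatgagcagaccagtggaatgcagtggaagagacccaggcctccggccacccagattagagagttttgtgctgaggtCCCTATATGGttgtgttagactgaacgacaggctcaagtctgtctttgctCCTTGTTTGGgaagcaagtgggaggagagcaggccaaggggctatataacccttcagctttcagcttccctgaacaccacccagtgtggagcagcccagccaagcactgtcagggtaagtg
The box in ACTG1 begins 94 bases before the start site, and those in ACTA2 begin 121 and 71 bases before it. A CArG box was found in 454 of 35116 windows of all genes (1.29%) and a near-CArG box in 2437 (6.94%). Among 215 windows of the members and the other actin cytoskeleton genes listed here, these counts were 17 (7.91%) and 21 (9.77%). The 13 tested genes among the owners of these 17 windows include ACTG1 with a log2 fold change of 0.41, FLNA with 0.70 and MYLK with -0.69, so genes with the box stood on both sides of 0. These matches are a description of letters in the windows.

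TAGLN and TAGLN2 encode transgelins, small calponin-like proteins that bind along actin filaments, the first typical of smooth muscle and the second more widely made. The FPKM of TAGLN (chr11:117199321-117204782, plus strand) were 27.93, 26.12 and 33.75 in Control and 41.56, 32.29 and 24.15 in rhChem157S. The treated libraries spanned more than the whole Control range, from both sides. With this spread, the log2 fold change was 0.28 (SE 0.17, edgeR adjusted p = 0.363). TAGLN shares 446 of 3917 exon bases with PCSK7 on the opposite strand, a convertase gene whose log2 fold change was 0.32 (SE 0.20). Unlike ACTA2, with which it is often used as a smooth muscle marker, TAGLN was highest in a treated library.

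TAGLN2 (chr1:159918107-159925732, minus strand) was far more abundant than TAGLN. Its FPKM were 374.3, 365.1 and 398.2 in Control and 379.1, 443.8 and 442.2 in rhChem157S. Treated library 1 lay within the Control range and the other two lay above it. Its log2 fold change was 0.29 (SE 0.12, 95% interval 0.012 to 0.56), with an unadjusted p of 0.0428 and an adjusted p of 0.207 in edgeR's test.

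TPM1 and TPM2 encode tropomyosins, coiled coils that lie along the filament and set which proteins, myosin among them, can reach it. The FPKM of TPM1 (chr15:63042632-63071915, plus strand) were 106.7, 101.7 and 118 in Control and 87.33, 77.04 and 144 in rhChem157S. Treated libraries 1 and 2 lay below every Control library and library 3 lay above every one. Its log2 fold change was 0.067 (SE 0.26, edgeR adjusted p = 0.892) over all libraries and -0.32 (adjusted p = 0.0941) without rhChem157S replicate 3, and its sign also turned with scaling by ACTB or by library size alone. Exons of TPM1 share 2070 of 12876 bases with TPM1-AS on the opposite strand, which is not in the count table, while the shared stretches of TMSB10 with TRABD2A (13 bases) and of PFN1 with ENO3 (111 bases) are short.

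TPM2 (chr9:35681992-35690121, minus strand) did not split in this way. Its FPKM were 129.2, 117.9 and 127.5 in Control and 147.9, 138.8 and 166 in rhChem157S. All treated libraries lay above all Control libraries. TPM2 had a log2 fold change of 0.41 (SE 0.12, 95% interval 0.13 to 0.68), with an adjusted p of 0.126 in edgeR's test and 0.0353 in DESeq2. It was 0.28 without rhChem157S replicate 3.

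MYL9 (chr20:36541484-36551447, plus strand) encodes a regulatory light chain of myosin II, which is phosphorylated when smooth muscle and non-muscle cells contract. Its FPKM were 84.02, 77.96 and 98.82 in Control and 84.53, 56.26 and 50.8 in rhChem157S. Treated libraries 2 and 3 lay below the Control range and library 1 within it. The log2 fold change was -0.33 (SE 0.17, edgeR adjusted p = 0.303, DESeq2 adjusted p = 0.273), and without rhChem157S replicate 1 it was -0.55 (edgeR adjusted p = 0.049).

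TMSB10 and PFN1 encode small proteins that bind actin monomers. Thymosin beta 10, from TMSB10 (chr2:84905625-84906675, plus strand), holds monomers in reserve. Its FPKM were 1709, 1632 and 1796 in Control and 2188, 2330 and 2086 in rhChem157S. The groups were well apart, and the 3 treated libraries lay close together. The log2 fold change was 0.49 (SE 0.093, 95% interval 0.27 to 0.71), with an unadjusted p of 0.00096 and an adjusted p of 0.0752 in edgeR's test, and an adjusted p of 1.76e-05 in DESeq2. With each library left out in turn it was 0.45 to 0.53, and edgeR's adjusted p was 0.0422 without rhChem157S replicate 1 and 0.0392 without replicate 3. Its related gene TMSB4X, named after its values were seen, had a log2 fold change of 0.24 (SE 0.093, edgeR adjusted p = 0.189).

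Profilin 1, from PFN1 (chr17:4945652-4949061, minus strand), hands monomers to growing filament ends. Its FPKM were 687, 591.8 and 656.6 in Control and 769, 818 and 1015 in rhChem157S. All treated libraries lay above all Control libraries, and library 3 was the highest. PFN1 had a log2 fold change of 0.57 (SE 0.16, 95% interval 0.19 to 0.94), the highest of the 10, with an adjusted p of 0.124 in edgeR's test and 0.016 in DESeq2. It was 0.38 without rhChem157S replicate 3 and 0.67 (edgeR adjusted p = 0.0495) without replicate 1.

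**Figure D2:**
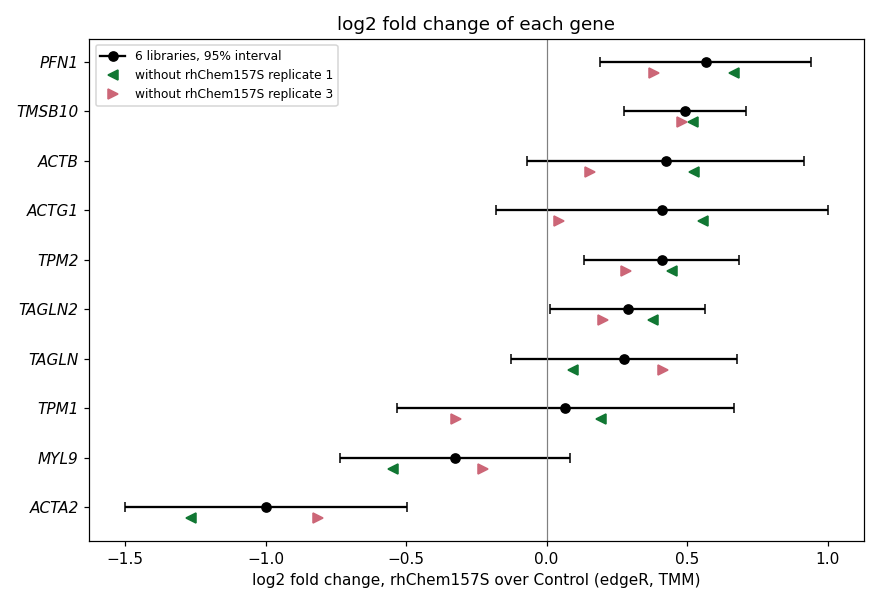
log2 fold change of rhChem157S over Control (horizontal axis) for the 10 genes, where black points and bars are the estimate and 95% interval over 6 libraries and triangles the estimate without rhChem157S replicate 1 (green) or 3 (red). The intervals of ACTA2, TAGLN2, TPM2, TMSB10 and PFN1 do not reach 0, ACTA2 stays at -0.81 or lower in each, and TPM1 passes from 0.067 to -0.32 without replicate 3.

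Across the 10 genes the log2 fold change was above 0 for 8 and below 0 for 2 (ACTA2 and MYL9), with a median of 0.35, beside a median of 0.012 over all genes tested. Without rhChem157S replicate 3 the members' median was 0.18. After TMM scaling, 4 members had all treated libraries above all Control libraries (ACTB, TPM2, TMSB10 and PFN1), where 16.5% of all genes did, and 1 had them all below (ACTA2), where 16% did. Scaling by ACTB alone, the reference of the study's qPCR, moved the median of all genes to -0.34 and that of the members to -0.037, and the signs of ACTG1, TAGLN, TAGLN2 and TPM1 turned. Library size alone moved the median of all genes to -0.12 and that of the members to 0.21, and turned the sign of TPM1 only. limma on log2(FPKM + 1) moved them to -0.083 and 0.18.

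Leaving out rhChem157S replicate 1, edgeR called 4 of the 10 members (ACTA2 and MYL9 lower, TMSB10 and PFN1 higher), beside 6.24% of all genes. Leaving out rhChem157S replicate 3, it called 2 (ACTA2 lower, TMSB10 higher), beside 3.07%. Leaving out rhChem157S replicate 2 or any Control library gave 0 member calls. Calls over all genes spanned 0 to 844 over the same settings.

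**Figure D3:**
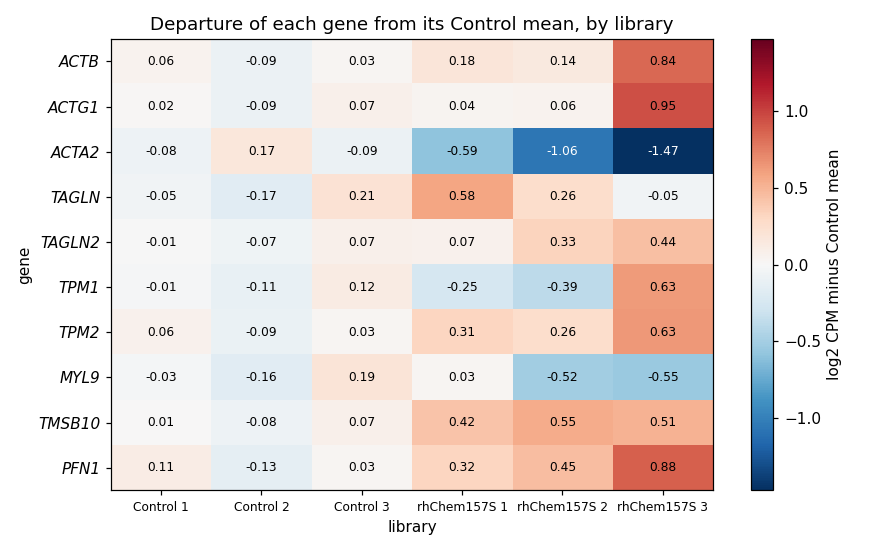
log2 CPM of each of the 10 genes (rows) in each of the 6 libraries (columns) minus the gene's mean over the Control libraries, in colour and as printed numbers. rhChem157S replicate 3 departs most for ACTB (0.84), ACTG1 (0.95), ACTA2 (-1.47) and PFN1 (0.88), while TMSB10 departs alike in all 3 treated libraries (0.42, 0.55 and 0.51).

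By library, the median departure of the 10 genes from their Control means was 0.12, 0.20 and 0.57 log2 CPM in rhChem157S libraries 1, 2 and 3. Together the 10 genes took 1.348%, 1.255% and 1.375% of all counts in Control and 1.409%, 1.375% and 1.975% in rhChem157S. The lowest treated share (95% Wilson interval 1.371% to 1.378%, which covers counting error only) and the highest Control share (1.371% to 1.379%) met, and rhChem157S replicate 3 stood far above the other 5 libraries. The mean share was 1.33% ± 0.063 in Control and 1.59% ± 0.34 in rhChem157S (SD, n = 3). ACTB and ACTG1 weigh most in this sum, with mean shares of 0.650% and 0.328% in Control and 0.789% and 0.393% in rhChem157S. In rhChem157S replicate 3 they took 0.999% and 0.541%.

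Ratios of related members within a library do not depend on the scaling between libraries. ACTG1 FPKM per ACTB FPKM was 0.436, 0.447 and 0.462 in Control and 0.407, 0.423 and 0.482 in rhChem157S. The groups overlapped, and the mean log2 ratio differed by -0.040 (exact two-sided permutation p = 0.7, 0.9 after Benjamini-Hochberg adjustment over the 4 ratios). ACTA2 per ACTB was 0.00942, 0.0123 and 0.00949 in Control and 0.00608, 0.00449 and 0.00208 in rhChem157S. Here all treated libraries lay below all Control libraries, and the mean log2 ratio differed by -1.43 (exact two-sided permutation p = 0.1, the smallest that 3 libraries a group allow, adjusted 0.4).

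TPM1 per TPM2 was 0.826, 0.863 and 0.925 in Control and 0.591, 0.555 and 0.867 in rhChem157S. Treated libraries 1 and 2 were low and library 3 was level with Control, for a mean log2 difference of -0.40 (exact two-sided permutation p = 0.3, adjusted 0.6). TAGLN per TAGLN2 was 0.0746, 0.0716 and 0.0848 in Control and 0.110, 0.0728 and 0.0546 in rhChem157S. The treated libraries lay on both sides of the Control range, and the mean log2 ratio differed by -0.018 (exact two-sided permutation p = 0.9, adjusted 0.9).

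**Figure D4:**
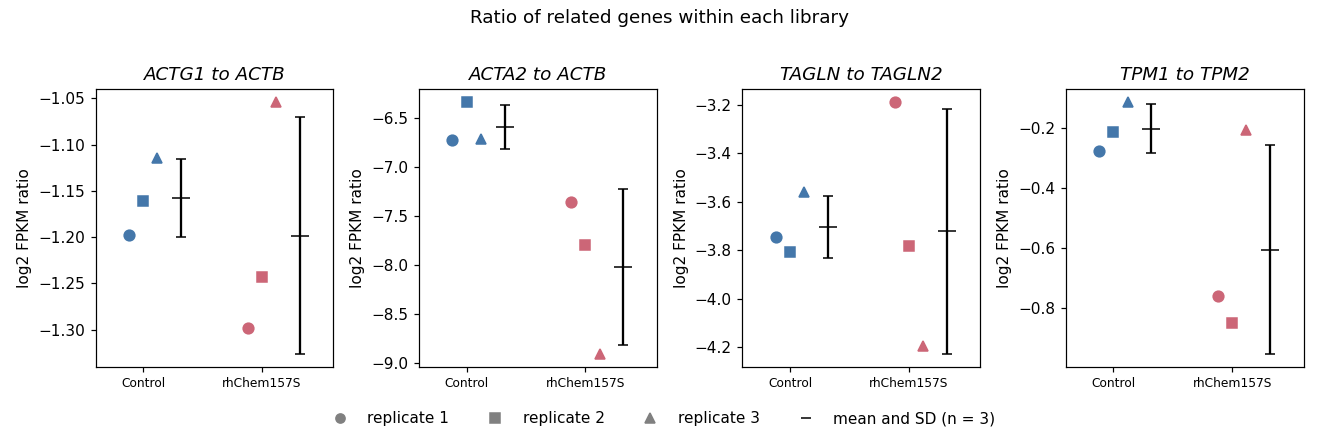
log2 ratio of FPKM (vertical axes, which do not start at 0) of 4 pairs of related genes in each Control (blue) and rhChem157S (red) library, with symbols for the replicate number and bars for the mean and SD (n = 3). ACTA2 to ACTB passes from -6.73, -6.34 and -6.72 to -7.36, -7.80 and -8.91, while the other 3 ratios overlap between the groups.

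Over the 6 libraries, which share 2 groups and so are not 6 independent conditions, Pearson correlations of log2 CPM between members are given as a description. ACTB and ACTG1 went together (0.98), as did TPM2 and PFN1 (0.98). ACTA2 ran opposite to PFN1 (-0.98) and TAGLN2 (-0.97) and with MYL9 (0.78), and TAGLN had -0.20 with ACTA2 and -0.079 with ACTB. Against the mean of the standardised log2 CPM of the 10, which includes each gene itself, TPM2 had 0.96 and ACTA2 had -0.87. Of 9627 genes outside the lists used here with a mean CPM of at least 10, YWHAH, LRIF1, CCDC43 and NACC1 were among the 5 with the highest correlations with that mean over the 6 libraries, at 0.986 to 0.988.

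The other genes of the actin cytoskeleton were taken by role from lists of 128 genes, of which 116 were tested. edgeR called 0 of these at an adjusted p under 0.05, 50 had an unadjusted p under 0.05 (22.8% of all genes), and DESeq2 called 21 higher and 4 lower (4.58% and 6% of all genes). The median log2 fold change was 0.18, with 77 above 0 and 39 below, and it was 0.074 without rhChem157S replicate 3 and -0.20 with scaling by ACTB. In TMM-scaled CPM, 42 had all treated libraries above all Control libraries and 14 had them all below, where 16.5% and 16% of all genes did.

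The tropomyosins TPM3 and TPM4, which non-muscle cells also make, both lay higher in every treated library, with log2 fold changes of 0.71 (SE 0.18) and 0.43 (SE 0.18). DESeq2 called TPM3 (adjusted p = 0.00686) and not TPM4 (adjusted p = 0.120). Of 2 further actins tested, cardiac ACTC1 had a log2 fold change of -1.14 (SE 0.65, edgeR adjusted p = 0.324) and ACTBL2 of -0.14.

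The Arp2/3 complex starts branches on existing filaments. All 9 genes listed for its subunits had a log2 fold change above 0, with a median of 0.42, and 7 lay wholly above Control, where 16.5% of all genes did. The other 2, ARPC5 and ARPC5L, overlapped Control at 0.099 (SE 0.094) and 0.14 (SE 0.19). edgeR called 0, with 7 at an unadjusted p under 0.05 (22.8% of all genes), and DESeq2 called 5, all higher (4.58% of all genes). ACTR2, a core subunit, had FPKM of 58.64, 59.66 and 60.87 in Control and 71.73, 74.13 and 72.86 in rhChem157S, with a log2 fold change of 0.42 (SE 0.080, edgeR adjusted p = 0.0752, DESeq2 adjusted p = 0.000281). ARPC1A and ARPC1B had 0.44 each. Without rhChem157S replicate 3 the list's median was 0.26.

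Genes that bind monomers or sever filaments had a median of 0.24 over 13 tested. DESeq2 called 3 higher and 1 lower, beside 4.58% and 6% of all genes. edgeR called 0, with 6 at an unadjusted p under 0.05, beside 22.8% of all genes. CFL1, the cofilin that takes old filaments apart, had 515.5, 498.3 and 551.1 FPKM in Control and 673.4, 693.2 and 847 in rhChem157S. Its log2 fold change was 0.64 (SE 0.14, edgeR adjusted p = 0.0940, DESeq2 adjusted p = 0.00165). CFL2 had 0.33 and the low-abundance severing protein gene SCIN -2.17 (SE 0.66). Of 7 genes that cap filament ends, 5 lay wholly above Control and 2 wholly below in TMM-scaled CPM, beside 16.5% and 16% of all genes. CAPZB had 0.43 (SE 0.093, DESeq2 adjusted p = 0.00294), CAPG 0.30 and TMOD3 0.27. The 2 below Control were TMOD1 with -0.59 (SE 0.32) and TMOD2 with -0.33 (SE 0.12).

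Among nucleation promoting factors and formins the median was -0.027 over 16 genes, and 9 of 16 were below 0. DESeq2 called 2, WASF2 (log2 fold change 0.42, SE 0.082) and the formin DIAPH2 (0.54, SE 0.11), both higher, beside 4.58% of all genes. In TMM-scaled CPM, 4 lay wholly above Control and 3 wholly below, beside 16.5% and 16% of all genes. WASF1, among those below, had -0.35 (SE 0.12). Crosslinkers had a median of 0.38 over 12 genes, and of 0.066 without rhChem157S replicate 3. FLNA, the large filamin that ties filaments into a net, had 0.70 (SE 0.19, DESeq2 adjusted p = 0.0058), while the plastins PLS3 and PLS1 had 0.40 and -0.48. The 17 genes that anchor actin at adhesion plaques and the membrane had a median of 0.21, and of 0.079 without rhChem157S replicate 3. MSN, a membrane linker, had 0.80 (SE 0.17, DESeq2 adjusted p = 0.000391) and TLN1, which links integrins to actin, 0.36. PDLIM1 had -0.24 (SE 0.082) and was lower in every treated library.

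Contractile genes stood on both sides of 0. Over 12 tested genes of myosin II and its activation the median was 0.12. MYLK, the kinase that phosphorylates the light chain that MYL9 encodes, had FPKM of 82.12, 74.97 and 74.3 in Control and 53.6, 50.6 and 28.42 in rhChem157S. It was lower in every treated library, with a log2 fold change of -0.69 (SE 0.20, edgeR adjusted p = 0.126, DESeq2 adjusted p = 0.0142). MYL6, which encodes an essential light chain, had 0.27. SRF had 0.39 (SE 0.21, edgeR adjusted p = 0.312), and its coactivators MRTFA and MRTFB had -0.11 and -0.044.

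Of 5 genes listed as calponins and caldesmon, among them the transgelin gene TAGLN3, edgeR called 0. DESeq2 called 1 lower, beside 6% of all genes. This was CNN1, a calponin of smooth muscle that is also among the smooth muscle markers below. Its FPKM were 6.5, 7.102 and 8.128 in Control and 3.387, 2.195 and 1.065 in rhChem157S, with a log2 fold change of -1.60 (SE 0.35, edgeR adjusted p = 0.0892, DESeq2 adjusted p = 0.000275). The caldesmon gene CALD1 and CNN3 had -0.18 and -0.17. Smooth muscle markers were set beside ACTA2. Over the 7 tested of 10 markers the median log2 fold change was -0.996, and it was -0.47 without rhChem157S replicate 3 and -1.87 without replicate 1. DESeq2 called 1 higher (SMTN) and 2 lower (CNN1 and DES), beside 4.58% and 6% of all genes, and 4 of the 7 lay wholly below Control, beside 16% of all genes. Their summed level was 117.7 to 133.9 CPM in Control and 107.5 to 154.2 CPM in rhChem157S. Of the 7 tested, SMTN, the marker with the most counts, ran opposite to the other 6 and weighs most in that sum. It had 1786, 1777 and 2132 counts in Control and 2063, 3006 and 4456 in rhChem157S. The actin gene ACTG2, a marker too low to be tested, also had more, with 3, 8 and 4 counts in Control and 8, 32 and 70 in rhChem157S. The defining markers MYH11 and MYOCD had 0 to 2 counts and 0 to 1 count in every library, and DES had 70 to 85 counts in Control and 14 to 22 in rhChem157S. Of the other marker lists, epithelial markers had a median of -0.41 over 10 tested and fibroblast markers of 0.0081 over 8. Endothelial and leukocyte markers had medians of -0.15 and -0.031, over 3 tested each. DESeq2 called 1 epithelial, 1 endothelial and 1 leukocyte marker lower, beside 6% of all genes. It called 2 fibroblast markers higher, beside 4.58%. edgeR called 0 in each list. In bulk RNA, fewer cells that make a transcript and less of it per cell cannot be told apart. The part of any of these markers in the ACTA2 result was not tested.

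**Figure D5:**
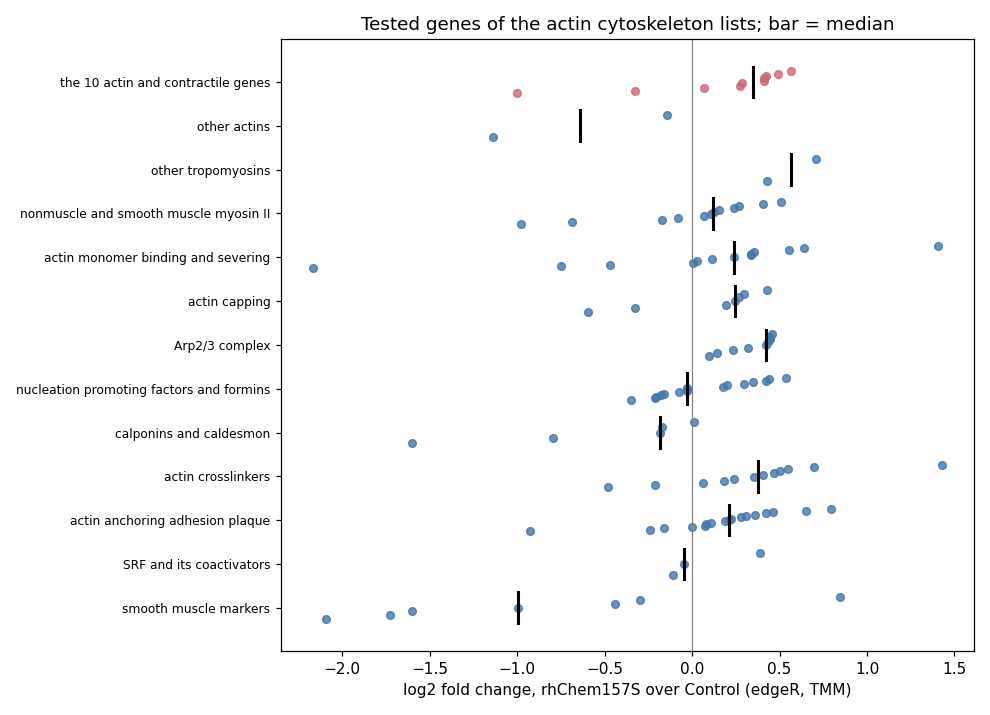
log2 fold change of rhChem157S over Control (horizontal axis) of each tested gene (points), grouped by list, with the 10 members in red at the top and vertical bars for each list's median. All 9 genes listed for the Arp2/3 complex lie above 0 and 6 of 7 smooth muscle markers below it, the members range from -1.0 to 0.57, and medians move with the scaling, that of the members being -0.037 when ACTB sets the scale.

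Of 13 genes often used as qPCR references, 9 had a log2 fold change above 0 and 7 lay wholly above Control (16.5% of all genes), with a median of 0.33, and of 0.18 without rhChem157S replicate 3. DESeq2 called 5 higher and 1 lower, beside 4.58% and 6% of all genes, where edgeR called 0. At an unadjusted p under 0.05 edgeR had 7, beside 22.8% of all genes. GAPDH had 0.90 (SE 0.17, DESeq2 adjusted p = 5.83e-06), PGK1 0.74 (SE 0.15) and RPLP0 0.55 (SE 0.11), while ACTB, the reference of the study's own qPCR, had 0.42 (SE 0.21) with an interval of -0.071 to 0.92.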

How the data were processed

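RNA of untreated 12Z cells (Control, n = 3) and of cells given rhChem157S (n = 3) was sequenced in paired reads of 150 bases. The authors cleaned the reads with fastp, aligned them to GRCh38.p13 with HISAT2 and counted reads on genes by HTSeq-count. Raw read counts and FPKM of 16279 genes were deposited. Strand setting and annotation release are not given in the sources used here. FPKM of 12103 genes with at least 20 counts equalled the counts scaled by one fixed length and the library's total, within 1%. 0 columns of samples were left unused.

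Counts were tested with edgeR 4.0.16 in R 4.3.3 (TMM, filter on low counts by group, quasi-likelihood test, p-values adjusted by Benjamini-Hochberg over 13311 genes), and the fits were tested on simulated counts. Other settings were DESeq2 1.42.0, limma 3.58.1 (pseudocounts 1 and 0.1 on FPKM), other scalings and filters, a replicate block and each library left out in turn. log2 CPM had a prior count of 2. Depth per library was at least 35430881 counts.

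The 10 genes and all lists were chosen with earlier results of these data known. Named are the 10 members, up to 3 genes per list with the smallest unadjusted p where edgeR called none, and the 5 genes most correlated with the members' mean. TMSB4X, TMOD1, TMOD2, genes overlapping members, and the cell type markers were named as context after their values were seen. Some genes and 1 list that this rule would name are not reported here.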

Additional observations from a re-analysis of the deposited data

How the results depend on the processing

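Of 159 alternative values for the 10 genes, 140 kept their direction and side of the threshold, 10 passed the threshold newly and 9 changed sign. The number of genes called, 4 of 13311, was 1407 with DESeq2, 23 and 179 with limma on log2(FPKM + 0.1) and log2(FPKM + 1), 17 with no filter on low counts and 1 with the replicate block, and 0 to 844 with each library left out. The settings with 0 calls still had 2153, 1666 and 2096 genes (without Control 1, 2 and 3) and 2190 genes (without rhChem157S replicate 2) at an unadjusted p under 0.05, and 2423 with ACTB as the scaling factor. The members called, 0 of 10, were 4 with DESeq2 and 0 to 4 with each library left out. The cause was not tested. Scaling by ACTB gave log2 fold changes of -0.037 for ACTG1, -0.034 for TAGLN, -0.087 for TAGLN2 and -0.39 for TPM1, and a median of -0.037 for the members. TPM1 was also below 0 with library size alone (-0.082), with limma on log2(FPKM + 0.1) and log2(FPKM + 1) (-0.13 in both) and with the replicate block (-0.0052), and spanned -0.32 to 0.24 with each library left out. With each library left out, the difference in mean log2 ratio spanned -0.11 to 0.0096 for ACTG1 to ACTB, -0.28 to 0.22 for TAGLN to TAGLN2, -1.76 to -0.98 for ACTA2 to ACTB and -0.60 to -0.28 for TPM1 to TPM2. The median of the other actin cytoskeleton genes, 0.18, was -0.20 with ACTB scaling, 0.047 with library size alone, 0.044 and 0.031 with limma on log2(FPKM + 0.1) and log2(FPKM + 1), and 0.074 to 0.23 with each library left out. These alternatives for the lists were chosen after seeing the data.

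The replicate numbers were checked for pairing by the correlation of same-numbered deviations from the group means, which was 0.241, 0.00147 and 0.247 for numbers 1 to 3. Since it was not above 0.1 in every pair, the numbers were not taken to pair the libraries. Control replicate 2 correlated best with rhChem157S replicate 1 (0.106). With the replicate block no member was called, as without it.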
